A study of Mus musculus with 8 samples.

Results

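The secretory genes of airway club and goblet cells were followed in bulk RNA-seq of fetal mouse lung. They are the 10 genes Scgb1a1, Scgb3a1, Scgb3a2, Cyp2f2, Cbr2, Aox3, Muc5b, Agr2, Spdef and Bpifa1, taken by symbol from the 55385 genes in the count tables, and all 10 were matched. Whole lungs of C57BL/6 fetuses at E18.5 were compared between 4 control and 4 tracheal occlusion (TO) samples, called here control 1 to 4 and TO 1 to 4. In TO fetuses the trachea had been tied at E16.5 together with one carotid artery and one jugular vein, so the vessels were occluded as well as the airway, and the dam had progesterone the day after. The labels say no more of the controls than that name. Each sample is bulk tissue, in which fewer cells of a type and less RNA per cell cannot be told apart. The study describes the 6 libraries it drew as lungs of separate fetuses, and neither it nor the labels state which fetuses shared a dam, so each p-value measures the spread between these samples.

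Club cells are the secretory cells of the conducting airway. They release secretoglobins into the airway fluid and carry the enzymes that oxidise inhaled compounds, and goblet cells make the gel-forming mucins under the transcription factor Spdef. In the fetal mouse lung, secretory cells arise from Sox2-positive airway progenitors, with Notch signaling favoring the secretory over the ciliated fate. Because liquid secreted by the lung cannot leave an occluded airway, the comparison asks how airway secretory transcripts stood in lungs held distended.

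The depth on genes was 270078 read pairs for TO 1, against 22822261 to 35002061 for the other 7 libraries. Levels are given as CPM, the read count of a gene relative to the library total, after scaling by TMM, a method that sets libraries to a common level through the bulk of their genes. In TO 1 a read was worth 3.43 CPM, and the members had between 2 and 155 reads there. Tested first were the 6 libraries that the study drew, namely controls 1, 2 and 4 together with TO 2, 3 and 4. The specimen names of the count tables end in a 4-digit code whose meaning is not stated in the sources used here. Code 3573 is shared by control 2 and TO 2, code 3604 by control 3 and TO 3, and code 3482 by controls 1 and 4 and TO 1 and 4. Among the 6, control 3 is missing, so TO 3 had no control of its own code.

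In the 6 libraries, 9 of the 10 members stood higher in TO and 1, Spdef, lower, but none passed the test. The quasi-likelihood test of edgeR, adjusted by Benjamini-Hochberg over all 21859 genes tested, called 0 members and 0 genes (0%) at the threshold of 0.1, and limma-voom also called 0. DESeq2 called 44 genes, 0.201% of those tested, among them Aox3 (adjusted p = 0.0182) and Agr2 (adjusted p = 0.0222). When every gene with a read was tested, edgeR called 40 genes, 0.127%, among them Scgb3a1, Muc5b, Aox3 and Agr2 with adjusted p-values from 0.00354 to 0.0635. The log2 fold changes of these members were nearly those of the first fit, and only their standard errors were smaller. For Scgb3a1 they were 3.01 ± 0.69 in the first fit and 3.01 ± 0.45 here. At an unadjusted p under 0.05, edgeR had 5 of the 9 members other than Bpifa1 higher in TO, where 3.07% of all genes were, and 0 lower, where 2.07% of all genes were. Bpifa1 passed the filter of 5 reads in 3 libraries only through the TO lungs, so it had to differ and is left out of such counts. The median log2 fold change of the 10 members was 1.38, beside -0.0045 over all genes tested. Bpifa1 is included in that median and in the 9 members that stood higher.

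The highest summed levels were in TO 2 and TO 3, and control 3 was far above the other controls for some members. Summed over the members, TO 2 held 2600 CPM and TO 3 2624 CPM, while TO 4, at 1022 CPM, lay below each of the 4 controls, which ranged from 1048 to 1775 CPM. Control 3 was the highest control. Scgb3a2 and Cbr2 made up most of the sum in TO 4 (534 and 307 CPM). The median log2 CPM of the 10 members, which weighs each gene alike, gave TO 4 another place. There TO 4 stood at 4.38, above controls 1, 2 and 4 (3.57, 3.32 and 4.23) and below control 3 (6.03). Control 3 stood at 2 times the highest other control or more in 4 members, Scgb3a1, Muc5b, Aox3 and Agr2, as did 3.79% of all genes. With control 3 added to the fit, 0 of the 9 members other than Bpifa1 had an unadjusted p under 0.05 in edgeR, beside 1.26% of all genes higher in TO, and the median log2 fold change of the 10 members was 0.88. With all 8 libraries the count was again 0 of 9, beside 1.43% of all genes, and the median was 0.78. Neither fit called a gene (0%). DESeq2 called 7 genes in the 7 libraries (0.0311%) and 7 in all 8 (0.031%), and none of the members.

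**Figure D1:**
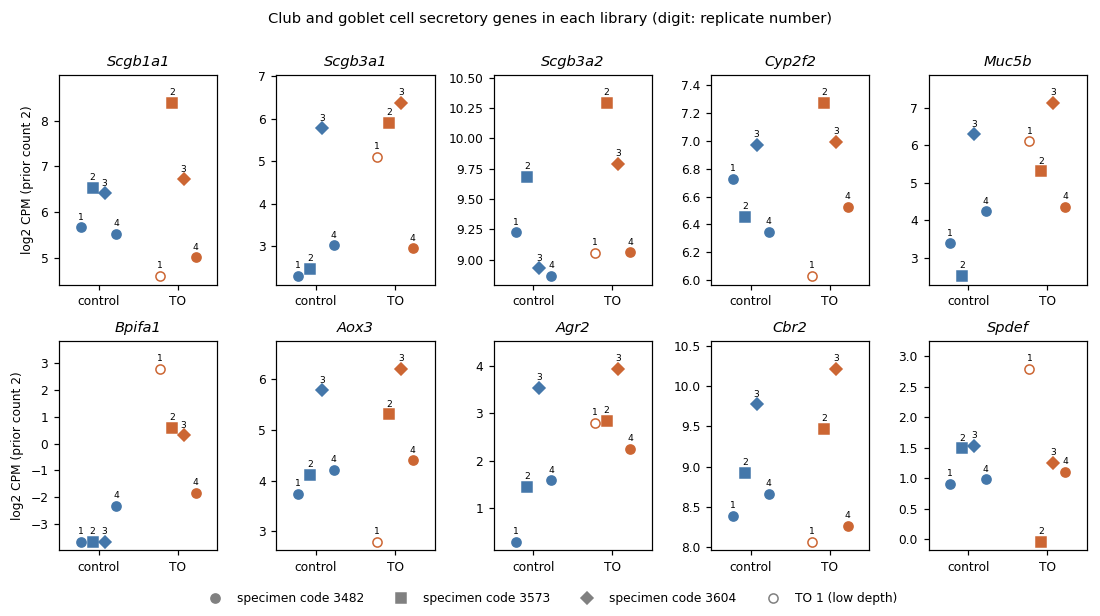
Each panel plots 1 gene's log2 CPM (prior count 2) in the 4 control and 4 TO libraries, with the replicate number above each point, the symbol giving the specimen code and the open symbol marking TO 1 with its 270078 reads. Control 3 sits apart from the other controls for Scgb3a1, Muc5b, Aox3 and Agr2, and only the Bpifa1 panel has no overlap between the groups over all 8 libraries.

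For the members with a RefSeq promoter entry on GRCm38.p6 (7 of 10, with none for Scgb1a1, Scgb3a2 and Muc5b), the 250 bases before the start were searched on both strands for short forms of sites of 3 factor families of the secretory epithelium. The NKX2-1 form CTCAAG was present in Scgb3a1, Bpifa1 and Spdef and in 13.3% of the 32817 promoters of the table, and the NKX2-1 form CAAGTG in Scgb3a1 and Cyp2f2 and in 11.6%. The FOXA form TATTTAC was found in Bpifa1 and Spdef and in 2.73% of promoters, and TGTTTAC in no member and in 3.16%. The C/EBP form TTGCNNAA was found in no member and in 9.57%. A match describes these letters only, and no match says nothing of the factor. The promoters below are those of Scgb3a1, the member with the smallest unadjusted p, Aox3, which was high and low in much the same libraries, and Bpifa1, the member whose groups did not overlap, each from 5′ to 3′ and ending at the base before the start. Capitals mark the matches. In Scgb3a1 both NKX2-1 forms overlap, on the opposite strand, at bases 174 to 167 before the start. In Bpifa1 CTCAAG lies on the opposite strand at bases 213 to 208 and TATTTAC on the gene's strand at bases 127 to 121. Aox3 holds no match.
Scgb3a1, chr11:49663345-49663594, plus strand: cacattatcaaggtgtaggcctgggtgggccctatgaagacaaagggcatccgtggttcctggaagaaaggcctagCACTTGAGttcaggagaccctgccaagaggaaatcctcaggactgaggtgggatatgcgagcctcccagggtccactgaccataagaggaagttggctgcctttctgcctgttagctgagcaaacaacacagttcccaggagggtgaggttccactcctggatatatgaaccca
Aox3, chr1:58112886-58113135, plus strand: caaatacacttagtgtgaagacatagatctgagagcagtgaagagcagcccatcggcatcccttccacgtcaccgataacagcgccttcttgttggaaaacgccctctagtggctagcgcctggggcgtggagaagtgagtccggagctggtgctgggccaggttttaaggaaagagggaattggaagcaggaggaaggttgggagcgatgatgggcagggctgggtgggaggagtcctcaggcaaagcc
Bpifa1, chr2:154142630-154142879, plus strand: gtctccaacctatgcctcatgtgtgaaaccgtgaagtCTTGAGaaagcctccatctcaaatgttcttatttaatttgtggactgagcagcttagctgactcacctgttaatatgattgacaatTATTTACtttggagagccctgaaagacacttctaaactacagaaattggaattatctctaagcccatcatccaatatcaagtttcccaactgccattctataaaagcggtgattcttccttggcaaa

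Among the secretoglobins, small secreted proteins of the airway lining, Scgb3a1 had the largest log2 fold change in the 6 libraries and Scgb3a2 the highest level. Scgb1a1 (chr19:9083636-9087958, minus strand) encodes club cell secretory protein, the usual marker of the cell type. Its level was 50.6, 92.0, 85.1 and 45.7 CPM in controls 1 to 4 and 24.0, 336, 105 and 32.0 CPM in TO 1 to 4. TO 2 was above every other library and TO 4 below every control, so the groups overlapped, and the log2 fold change over the 6 libraries was 1.32 ± 0.67 (SE, n = 3 and 3, edgeR adjusted p = 0.907). It was 0.12 ± 0.47 without TO 2 and 1.21 ± 0.60 with control 3 added (edgeR adjusted p = 0.981 and 1). The mean of Scgb1a1 over the 6 libraries was 62.8 ± 25.4 CPM (SD, n = 3) for controls, and that of TO was 158 ± 158 CPM (SD, n = 3), a spread as wide as the mean.

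Scgb3a1 (chr11:49663610-49665118, plus strand), the secretoglobin of the larger airways, was at 4.86, 5.50, 54.5 and 8.09 CPM in controls 1 to 4. In TO 1 to 4 it was at 34.3, 60.0, 82.4 and 7.68 CPM. Controls 1, 2 and 4 and TO 4 were low and the other 4 libraries high, so the split followed the groups except for control 3 and TO 4. The level of TO 1 rests on 10 reads. Over the 6 libraries the log2 fold change was 3.01 ± 0.69 (edgeR adjusted p = 0.907), and with control 3 added it was 1.45 ± 0.92 (adjusted p = 1).

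Scgb3a2 (chr18:43764289-43767399, plus strand), the earliest secretoglobin of the developing airway, was at 599, 821, 488 and 466 CPM in the controls and 532, 1252, 886 and 534 CPM in TO. Its control 2 was the highest control and control 3 among the lowest, unlike Scgb3a1. TO 2 and TO 3 were above every control and TO 1 and TO 4 within the control range. The log2 fold change was 0.50 ± 0.29 in the 6 libraries (edgeR adjusted p = 0.907) and 0.59 ± 0.28 with control 3 added (adjusted p = 1).

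Of the enzymes of xenobiotic metabolism, Cyp2f2 had the smallest log2 fold change in the 6 libraries, below those of Cbr2 and Aox3. Over the 7 libraries other than TO 1, the Pearson correlation with Scgb3a1 was 0.969 for Aox3, 0.917 for Cbr2 and 0.843 for Cyp2f2. In TO 1, all of these enzymes were at their lowest level of any library, while Scgb3a1 was not. Cyp2f2 (chr7:27119909-27133660, plus strand), the cytochrome P450 that activates naphthalene in club cells, was at 106, 87.7, 126 and 81.4 CPM in controls 1 to 4. In TO 1 to 4 it was at 65.2, 154, 127 and 92.1 CPM. The groups overlapped, and the log2 fold change was 0.44 ± 0.18 (edgeR adjusted p = 0.907, unadjusted p = 0.0399). With control 3 added it was 0.31 ± 0.20 (edgeR adjusted p = 1, unadjusted p = 0.152). Its exons overlap those of the antisense gene Gm15883, and the share of reads on the first strand was 49.9% to 50.1% in every library, so reads of the pair cannot be told apart.

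Aox3 (chr1:58113130-58200698, plus strand), an aldehyde oxidase, was at 13.3, 17.2, 54.7 and 18.4 CPM in the controls. In TO 2, 3 and 4 it was at 39.4, 73.6 and 21.04 CPM, and in TO 1 at 6.87 CPM, which is 2 reads. All 3 deep TO libraries were above controls 1, 2 and 4, and control 3 was above TO 2 and TO 4. The log2 fold change was 1.44 ± 0.38 in the 6 libraries (edgeR adjusted p = 0.907, DESeq2 adjusted p = 0.0182). With control 3 added it was 0.78 ± 0.52, and the adjusted p was 1 in both tools.

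Cbr2 (chr11:120729489-120732114, minus strand), the carbonyl reductase abundant in mouse lung, was at 335, 486, 875 and 404 CPM in the controls and 268, 710, 1191 and 307 CPM in TO. TO 3 was the highest library and control 3 the next, while TO 1 and TO 4 were below every control. The log2 fold change was 0.84 ± 0.39 (edgeR adjusted p = 0.907), and 0.49 ± 0.43 with control 3 added (adjusted p = 1).

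Of the mucous genes, Muc5b and Agr2 stood higher in TO 2, 3 and 4 than in controls 1, 2 and 4, and Spdef did not. Muc5b (chr7:141839070-141873084, plus strand), the main gel-forming mucin of mouse airways, was at 10.4, 5.66, 77.9 and 18.8 CPM in controls 1 to 4. In TO 1 to 4 it was at 68.7, 39.4, 139 and 20.4 CPM. TO 4 exceeded control 4 by a narrow margin, and control 3 exceeded TO 1, TO 2 and TO 4. The log2 fold change was 2.50 ± 0.68 over the 6 libraries (edgeR adjusted p = 0.907) and 1.23 ± 0.86 with control 3 added (adjusted p = 1). Without TO 3 it was 1.37 ± 0.45 (edgeR adjusted p = 1).

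Agr2 (chr12:35992907-36004087, plus strand), the disulfide isomerase that folds mucins in the endoplasmic reticulum, was at 1.14, 2.63, 11.55 and 2.91 CPM in the controls. Its TO levels were 6.87 (2 reads), 7.08, 15.3 and 4.66 CPM. Again all TO libraries were above controls 1, 2 and 4, and control 3 was above all of them but TO 3. The log2 fold change was 2.001 ± 0.50 (edgeR adjusted p = 0.907, DESeq2 adjusted p = 0.0222), and it was 0.97 ± 0.69 with control 3 added (adjusted p = 1 in both tools). Without TO 3 it was 1.40 ± 0.45 (edgeR adjusted p = 1).

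Spdef (chr17:27714352-27728955, minus strand), the transcription factor of goblet cell differentiation, was the member that stood lower. It was at 1.79, 2.73, 2.82 and 1.90 CPM in the controls and 0.896, 2.31 and 2.08 CPM in TO 2, 3 and 4, while the 6.87 CPM of TO 1 were 2 reads. TO 2, where most other members were high, had the lowest Spdef level of all libraries. The log2 fold change was -0.29 ± 0.46 (edgeR adjusted p = 0.966), and it was 0.03 without TO 2 and -0.40 ± 0.43 with control 3 added.

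Bpifa1 (chr2:154142880-154149219, plus strand), a secreted defence protein of the upper airway surface, was the member without overlap of the groups with 6, 7 and 8 libraries. It entered the fits only through its reads in TO lungs, so what follows describes its counts and is no test of a difference. It had 0, 0, 0 and 3 reads in controls 1 to 4 and 2, 49, 28 and 7 reads in TO 1 to 4. These counts correspond to 0, 0, 0 and 0.121 CPM in the controls and 6.87, 1.42, 1.16 and 0.199 CPM in TO. The 3 controls without a read allow a level of up to 0.131, 0.0976 and 0.101 CPM, taking 3 reads as the limit of a count of 0. TO 4 lay closest to the controls, at 7 reads beside the 3 reads of control 4. Pooled over the 6 libraries and scaled for depth, the TO reads were 23.3 times those of control (exact 95% interval 7.72 to 115, 84 against 3 reads), and over all 8 libraries 32.9 times (10.9 to 163, 86 against 3 reads). The intervals cover counting error only. Neither edgeR nor DESeq2 called it with 6, 7 or 8 libraries.

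**Figure D2:**
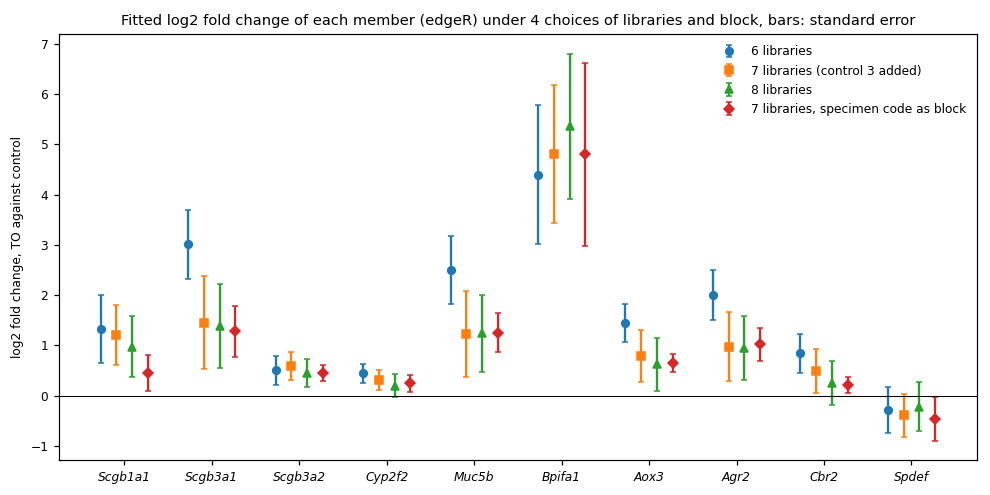
Points are the edgeR log2 fold change of each member, TO against control, and bars its standard error, fitted on the 6 libraries, with control 3 added (7 libraries), with TO 1 added as well (8 libraries), and on the 7 libraries with the specimen code as a block. Scgb3a1 goes from 3.01 to 1.45 and Muc5b from 2.50 to 1.23 when control 3 enters, while the fitted value of Bpifa1 goes from 4.40 to 4.80.

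Groups without overlap were counted for each choice of libraries. In the 6 libraries, 3 of the 9 members other than Bpifa1, which were Muc5b, Aox3 and Agr2, had every TO lung above every control, as did 5.06% of all genes tested, and 0 members had every TO lung below, where 5.82% of genes did. With control 3 added the count was 0 of 9, beside 2.26% of genes, and with TO 1 as well it was 0 of 9, beside 0.714%. The groups of Bpifa1 did not overlap in any of the 3, which the filter on reads had favored. Leaving out TO 4 had the opposite effect. Without TO 4, edgeR called 144 genes, 0.692% of those tested, and 4 of the 9 members tested, which were Scgb3a1 (adjusted p = 0.00233), Aox3 (0.0536), Cbr2 (0.0917) and Muc5b (0.0937). Bpifa1 then fell under the filter on reads.

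Compared within a specimen code, 1 library against 1, the differences were of unequal size. TO 2 held more than control 2 for 8 of the 9 members other than Bpifa1, with a median ratio of 2.29 and a highest ratio of 10.9 for Scgb3a1, and Spdef at 0.328. In the pair TO 3 and control 3, the count was also 8 of 9, but the median ratio was 1.35 and the highest 1.82, for Scgb3a2. TO 4 was above control 4 for 6 of 9 members (median ratio 1.09) and above control 1 for 5 of 9 (median ratio 1.16). TO 1, of the same code but with few reads, was above control 4 for 5 of 9 (median ratio 1.14, range 0.373 to 4.25) and above control 1 for 4 of 9 (median ratio 0.889, range 0.475 to 7.07). With the code as a block in the fit of 7 libraries, edgeR called 1 gene (0.00444%) and no member. At an unadjusted p under 0.05, 5 of the 9 members other than Bpifa1 were then higher in TO, beside 2.59% of all genes, namely Scgb3a1, Scgb3a2, Muc5b, Aox3 and Agr2. Their log2 fold changes in that fit ran from 0.45 ± 0.17 for Scgb3a2 to 1.28 ± 0.51 for Scgb3a1, and every adjusted p was 1.

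**Figure D3:**
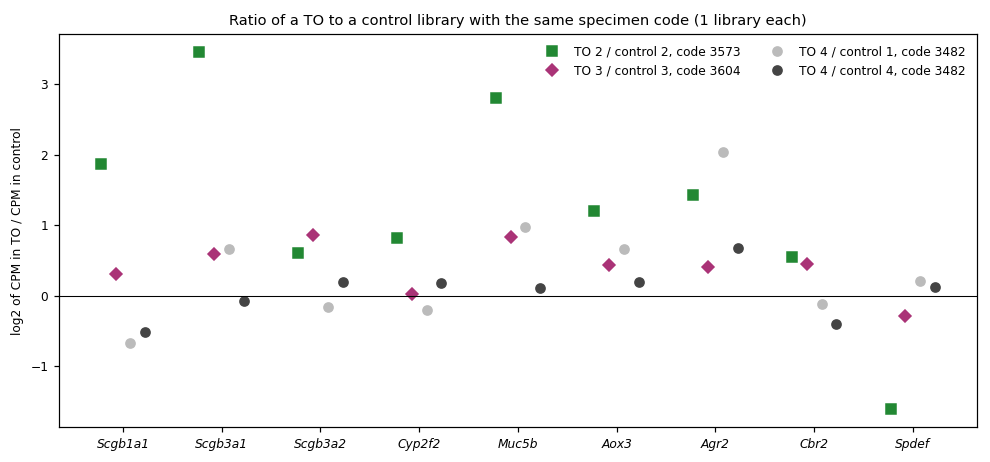
The vertical axis is the log2 ratio of CPM in a TO library to CPM in a control library with the same specimen code, for the 9 members other than Bpifa1, which had no read in 3 controls, with the pairs of TO 1 not drawn. The pair of code 3573 (TO 2 and control 2) has the highest ratio for 6 members, up to 10.9-fold for Scgb3a1, and the ratios of TO 4 to controls 1 and 4 lie on both sides of 0 on the log2 axis, with a highest ratio of 4.10 for Agr2.

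Per length of exon, which allows levels to be compared between genes, the members differed widely in controls. Scgb3a2 led with a median of 617 CPM per kb (range 530 to 933, 4 controls), ahead of Cbr2 at 335 (252 to 659) and Scgb1a1 at 143 (96.1 to 193). Cyp2f2, over its full exon length including the stretch shared with Gm15883, stood at 47.8 CPM per kb (40.2 to 62.0), and Scgb3a1 at 11.4 (8.13 to 91.2). These 5 were the abundant members, and the mucous genes were far below them. Aox3 had a control median of 2.53 CPM per kb, Agr2 2.15, Spdef 1.005 and Muc5b 0.978, with Bpifa1 at 0. Neighbours whose control ranges overlapped were Scgb3a2 and Cbr2, Cyp2f2 and Scgb3a1, Aox3 and Agr2, Agr2 and Spdef, and Spdef and Muc5b. Spdef exceeded Muc5b in 2 of 4 controls and in 2 of the 7 libraries other than TO 1. Cyp2f2 exceeded Scgb3a1 in 3 of 4 controls and in 4 of the 7 libraries.

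**Figure D4:**
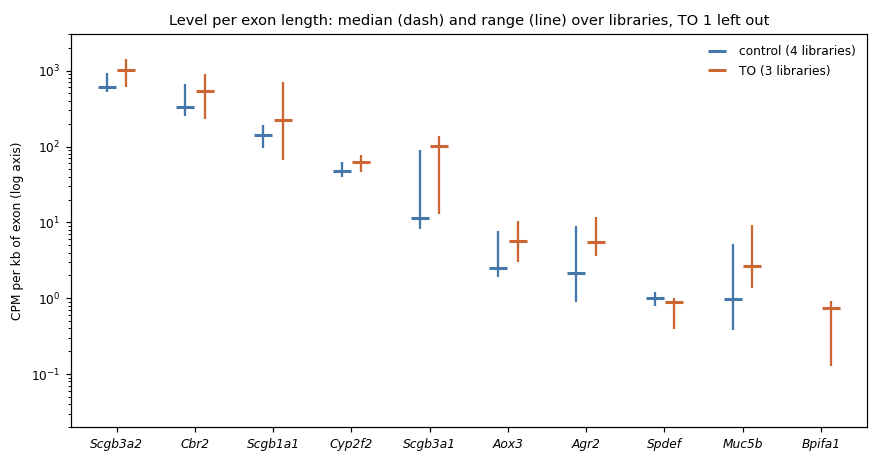
Dashes are medians and lines the range of CPM per kb of exon (log axis) over 4 controls and over TO 2, 3 and 4, in the order of the control medians; Bpifa1 has no control mark because its control median is 0. The control and TO ranges overlap for each gene drawn in both groups, and the control range of Scgb3a1 reaches from 8.13 to 91.2 because of control 3.

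Other genes of the same functions were counted in 5 lists, 4 of which hold some of the members. Of 17 secretoglobin and BPI-fold genes, 7 passed the filter. Of these, 6 stood higher and 1 lower, the median log2 fold change was 0.62 and 0 were called. Bpifa1, which passed the filter only through its TO reads, is among the 6 that stood higher. With it left out, only the member Scgb3a1 was higher at an unadjusted p under 0.05 in edgeR, where 3.07% of all genes were. A further 6 genes of the family, all of the BPI-fold group, had no read in the 6 libraries. Bpifb1, a relative of Bpifa1 in the airway fluid, had a log2 fold change of 0.62 ± 0.45 and Bpifb5 one of -0.18 ± 0.50 (edgeR adjusted p = 0.91 and 0.981).

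Of 27 genes of xenobiotic metabolism, 25 were tested, 20 higher and 5 lower, with a median of 0.32, 6 at an unadjusted p under 0.05 (all higher, where 3.07% of all genes were) and 0 called. The members Cyp2f2 and Aox3 are among the 6. The most abundant that are no members were Fmo2, a flavin monooxygenase of the lung, at 0.32 ± 0.15, and Ces1d, a carboxylesterase, at 0.37 ± 0.17, which was -0.0147 with all 8 libraries. Gsta3, a glutathione transferase, had the smallest unadjusted p of those higher, at 1.21 ± 0.32 (edgeR unadjusted p = 0.00413, adjusted p = 0.907). In controls 1 to 4 Gsta3 was at 6.00, 5.43, 3.93 and 3.80 CPM. TO 2, 3 and 4 had Gsta3 at 15.7, 7.27 and 12.2 CPM, above every control, and TO 1 had no read. Cbr3, a relative of Cbr2, was at -0.11 ± 0.38.

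Of 31 mucous genes, 22 were tested, 15 higher and 7 lower, with a median of 0.14, 6 at an unadjusted p under 0.05 (all higher, where 3.07% of all genes were) and 0 called. The members Muc5b and Agr2 are among the 6. The abundant Muc1, a membrane mucin of all lung epithelium, was at -0.05 ± 0.21, and Xbp1, a factor of the secretory stress response, at 0.10 ± 0.10. Ltf, lactoferrin, which airway glands and neutrophil granules both hold, was at 1.12 ± 0.32 (edgeR unadjusted p = 0.00733, adjusted p = 0.907). Muc5ac, the other gel-forming airway mucin, was at 4.60, 3.09, 0.403 and 2.91 CPM in controls 1 to 4. In TO 1 to 4 it was at 17.2 (5 reads), 1.94, 2.31 and 3.33 CPM. Control 3, high for Muc5b, was thus the lowest library for Muc5ac, and the log2 fold change was -0.48 ± 0.36 in the 6 libraries (edgeR adjusted p = 0.91). It turned to 0.31 with all 8 libraries and to 0.35 in 7 libraries with the code as a block.

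Of 19 regulators of secretory fate, all were tested, 7 higher and 12 lower, with a median of -0.015 and 1 at an unadjusted p under 0.05 (higher). That gene was Cebpd, a C/EBP factor, at 54.5, 62.8, 158 and 63.4 CPM in controls and 48.1, 111, 149 and 70.1 CPM in TO, again with control 3 as the highest control. Its log2 fold change was 0.86 ± 0.23 (edgeR adjusted p = 0.907). Nkx2-1, the lung epithelial factor, was at -0.20 ± 0.16, Notch2 at -0.11 ± 0.10 and Cebpb at -0.25 ± 0.11. The club cell list of the study, 38 genes from an outside lung atlas, had 24 higher and 14 lower, a median of 0.25, 6 higher and 2 lower at an unadjusted p under 0.05 (3.07% and 2.07% of all genes), and 0 called. The members Cyp2f2 and Aox3 are among the 6. Its abundant genes Trf and AU021092 were at 0.30 ± 0.25 and -0.04 ± 0.17, and Ptgr1 at -0.56 ± 0.23 (edgeR adjusted p = 0.907).

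Genes whose log2 CPM ran most alike to a member were sought among 12407 genes over the 7 libraries other than TO 1. The likeness is a Pearson correlation, a description over libraries that share groups and codes. To Scgb1a1 they were Apln (r = 0.981), Hp (r = 0.981) and Zdhhc6 (r = 0.978). To Muc5b they were C1galt1 (r = 0.994), Dnajb4 (r = 0.992) and Zmat3 (r = 0.988). The level of Scgb1a1 peaked in TO 2 and that of Muc5b in TO 3.

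Markers of other cell types differed between libraries as well. Of 10 general epithelial markers, 10 stood lower in TO, 4 at an unadjusted p under 0.05 beside 2.07% of all genes, with a median log2 fold change of -0.31 and 0 called. Their sum was 1763 to 2146 CPM in controls and 1274 to 1774 CPM in TO. Among the TO libraries, TO 2 and TO 3 had the highest sums of the members and also of the epithelial markers (1774 and 1610 CPM). Over all 8 libraries the members' sum was highest in these as well, and that of the epithelial markers in control 3 (2146 CPM). A link between the sums was not tested. Neutrophil granule genes moved the other way from the epithelial markers, with a summed level of 23.2 to 50.9 CPM in controls and 57.9 to 158 CPM in TO. Of 9 genes, 7 were tested and 7 stood higher (median 1.82, 0 called). At an unadjusted p under 0.05 in edgeR were 5, beside 3.07% of all genes. The granule enzymes Elane and Mpo fell under the filter on reads and went the other way. Elane was at 1.09 and 0.243 CPM in controls 1 and 4 and at 0.124 CPM in TO 3. It was at 0 in control 2, control 3 and TO 1, 2 and 4. Mpo was at 1.27, 0.738 and 0.202 CPM in controls 1, 3 and 4 and at 0.0853 CPM in TO 4. It was at 0 in control 2 and TO 1, 2 and 3.

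The summed levels of the other marker lists overlapped between the groups. In the 6 libraries, 8 AT2 markers stood higher and 1 lower (median log2 fold change 0.38). Of the ciliated markers, 8 stood higher and 2 lower (median 0.12). The AT1, neuroendocrine, cartilage and basal medians ran from -0.06 to 0.13. Higher at an unadjusted p under 0.05 in edgeR were 2 AT2, 1 ciliated and 1 neuroendocrine marker, beside 3.07% of all genes, with 0 lower and 0 called. The AT2 list summed to 9944 to 16253 CPM in controls and 6737 to 20557 CPM in TO, highest in TO 2, as were Scgb1a1 and Scgb3a2. Ciliated markers summed to 226 to 275 and 148 to 321 CPM, and AT1 markers to 814 to 1368 and 443 to 1352 CPM. Neuroendocrine markers summed to 13.6 to 17.98 and 13.7 to 18.9 CPM and cartilage markers to 67.7 to 125 and 88.7 to 189 CPM. Basal and stratified markers were at 480 CPM in control 1, 457 CPM in TO 1 and 483 CPM in TO 4, and between 103 and 127 CPM in the other 5 libraries. Thyroid markers stayed between 0.390 and 2.15 CPM outside TO 1. TO 4 and TO 1 had summed secretory levels below every control, but median member levels (4.38 and 4.85 log2 CPM) above controls 1, 2 and 4. The TO 1 median lies between Scgb1a1 and Scgb3a1, at 7 and 10 reads, where 1 read was worth 3.43 CPM. TO 4 and TO 1 were both high for stratified markers, together with control 1. The part of these cell types in the members' levels was not tested.

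**Figure D5:**
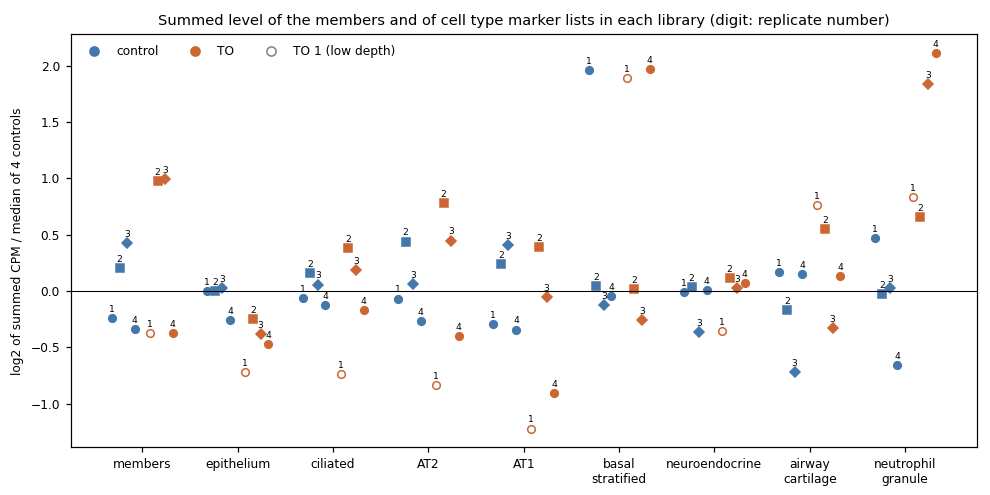
The vertical axis is the log2 ratio of each library's summed CPM to the median of the 4 controls, for the members and 8 lists of marker genes, with the replicate number above each point. TO 2 and TO 3 stand above the controls for the members, all TO libraries stand above the controls for neutrophil granule genes, and control 1, TO 1 and TO 4 stand apart for basal and stratified markers.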

How the data were processed

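The authors sequenced NexteraXT libraries of 8 lungs as read pairs and aligned them to GRCm38 with STAR. The deposited values are counts of read pairs per gene, not normalized, with both strands together. The version of STAR and the annotation are not given in the sources used here. Of 55385 gene IDs, 54487 were identical to GENCODE M21 and 55144 matched without the version.

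A gene was tested where 3 or more of the libraries fitted had at least 5 reads, with edgeR 4.0.16 (TMM, quasi-likelihood test, Benjamini-Hochberg over all genes, threshold 0.1) in R 4.3.3. DESeq2 1.42.0 and limma-voom of limma 3.58.1, other filters and scaling, other libraries and blocks by replicate number or specimen code were alternatives. Per-library CPM used TMM factors of all 8 libraries. The steps were tested on simulated data. Motifs and figures used Python 3.11.15.

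The members and lists were chosen with earlier results of these data known. Named genes were the members, per list the 2 most abundant others and the smallest unadjusted p in each direction, and the 3 most like Scgb1a1 and Muc5b. Genes outside this rule (Gm15883 and the markers at 0) were named after their values were seen.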

Additional observations from a re-analysis of the deposited data

Results flagged for a closer look

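Among the 4 libraries of a group, a library far from the others was looked for in each member and group (Dixon's criterion, 20 groups of 4 values), and 4 were found, all in controls. Chance marks about 1 in 20 such groups, or 5%, where the values are normal and the groups independent, which was not tested for these CPM. Control 3 stood apart for Scgb3a1 at 54.5 CPM, for Aox3 at 54.7 CPM and for Agr2 at 11.55 CPM, each time above the other 3 controls. These genes ran alike over the 7 libraries other than TO 1 (Pearson r from 0.911 to 0.969). Their marks are thus not separate events to set against that rate. Control 4 stood apart for Bpifa1 at 0.121 CPM, its 3 reads against none in the other controls. With the other 3 at 0, any read would have set it apart, so this one says nothing of chance. Control 3 is the control that the study did not draw. The fold changes of Scgb3a1, Aox3 and Agr2 were given above with and without it.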

How the results depend on the processing

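Over all alternatives the median log2 fold change of the members stayed above 0. DESeq2 gave 44 genes called with 2 members, and 1 each in the metabolism, mucous, fate and study lists; testing every gene with a read gave 40 genes with 4 members, and 1, 1, 2, 1 and 1 in the secretoglobin, metabolism, mucous, fate and study lists. Leaving out 1 of the 6 libraries gave 0 to 144 genes called, 0 to 4 members, 0 to 1 secretoglobin, 0 to 3 metabolism, 0 to 1 mucous, 0 to 1 fate and 0 to 2 study list genes. The upper counts are without TO 4, and without control 4 there were 52 genes and no member. The median log2 fold change in these fits was 0.87 (without TO 2) to 1.79 (without TO 4). Both ends are medians of 9 members, as Bpifa1 falls under the filter when a TO library is left out. The other medians are of 10 members where a control is left out. With a replicate block by number, 219 genes (1%) were called in the 6 libraries with 2 members (1, 2, 2 and 2 genes in the secretoglobin, metabolism, mucous and study lists). Among those 6 libraries, only replicate numbers 2 and 4 have both a control and a TO library. Control 1 and TO 3 stand alone in their blocks, so that difference rests on TO 2 with control 2 and TO 4 with control 4. With the same block, 3 genes with no member were called in all 8 libraries, where the median was 0.45. The numbers share only a label by the rule used: deviations of same-numbered libraries correlated at 0.0518, 0.13, 0.157 and 0.0708, and each library correlated best with one of its own specimen code, control 1 with TO 4 rather than TO 1, a hint from the data and not from the design. The specimen code block in all 8 libraries, planned, gave a median of 0.48, and in 7 libraries, added after seeing the data, 1 gene called. DESeq2 on 7 and on 8 libraries, also added, called 7 genes each.

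Some single genes turned direction. Ces1d was at -0.0147 with 8 libraries in edgeR and -0.0136 in DESeq2, -0.0795 with the replicate block in 8 and -0.0424 with the code block in 8. Muc5ac was at 0.31 with 8 libraries, 0.60 in DESeq2, 0.82 with the replicate block, 0.73 with the code block and 0.35 with the code block in 7. Cbr3 was at 0.013 in DESeq2 with 8. With 1 of the 6 libraries left out, Spdef ranged from -0.51 to 0.0328, Bpifb5 from -0.88 to 0.19, Cbr3 from -0.55 to 0.21, Muc1 from -0.18 to 0.19, AU021092 from -0.17 to 0.15, Apln from -0.0323 to 0.40 and Zdhhc6 from -0.0131 to 0.23, the upper end being without TO 4 except for Spdef (without TO 2).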
